A study of Mus musculus with 8 samples.

Results

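The genes described here encode the enzymes of the urea cycle and of amino acid breakdown in mouse liver. They form a list of 44 names, sorted into 10 amino acid pathways, and were taken by gene name from 2 expression tables. In all, 43 of the 44 were read in both tables, out of 13774 genes in one table and 11773 in the other, and Ass1 was not analysed here. The values are RNA-seq reads per gene, divided by 1 factor per library.

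The liver breaks down most amino acids. The nitrogen they release as ammonia is turned into urea by the urea cycle, which starts in the mitochondrion with carbamoyl phosphate synthetase and ends in the cytosol with arginase, and the carbon chains go to glucose, ketone bodies or oxidation. Many of these enzymes are known in liver as genes that follow feeding, glucagon and glucocorticoids, and most are made by hepatocytes, some mainly around the portal vein and others around the central vein.

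All 8 libraries came from livers of C57BL/6 mice fed a diet of 42% fat for 8 weeks. One table held 2 libraries of liver labelled Ube3a TG homo and 2 of wild-type (WT) liver. Ube3a TG homo mice carry a transgene that overexpresses the ubiquitin ligase gene Ube3a. The other table held 2 libraries of liver labelled Ube3a het, with 1 knockout and 1 wild-type allele of Ube3a, and 2 further libraries of WT liver. The question the design poses is how the liver transcriptome on a fatty diet differs from WT when Ube3a is raised or lowered. The sources used here do not give the promoter that drives the transgene, the parent that passed on the knockout allele, or the age of the mice, and no group on a normal diet was analysed here. Nor do they say whether each library is a mouse of its own, so the p-values measure the spread between these libraries, which may be technical.

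Libraries of the TG table held 44193275 to 47928229 reads each, and the het libraries and their WT pair held 13171145 to 17748088. Ube3a itself stood at 1187 and 1359 in the WT pair and at 5991 and 5938 in the TG pair, a log2 difference of 2.23 ± 0.13 (SE of the fit; limma, adjusted p = 0.0586). In the het table it stood at 369 and 409 in WT and at 301 and 280 in het, a log2 difference of −0.42 ± 0.11 (limma, adjusted p = 0.129). Both pairs lay on the side that their label names. Of 8 hepatocyte markers 7 were read, among them Alb, with 5.79% to 7.94% of each library. The 7 all stood higher in TG by log2 difference, and in het 3 stood higher and 4 lower. Both mutant libraries lay above both WT libraries for 4 of the 7 in TG, beside 21.8% of all genes. In het 2 of the 7 lay above and 1 below, beside 24.3% and 23.7%. The summed values of the 7, most of which came from Alb, overlapped with WT in both tables. They were 4546490 and 3502250 in WT and 4542400 and 4165840 in TG. In the het table they were 1594540 and 1385380 in WT and 1311400 and 1449730 in het. By log2 difference, endothelial markers stood on opposite sides of WT in the 2 tables, and most macrophage markers did as well. All 10 endothelial markers stood lower in TG, with summed values of 17110 and 16477 in WT and of 14012 and 13774 in TG. The same 10 stood higher in het, at 3995 and 4361 in WT and at 4972 and 4993 in het, where limma called 1 of them. All 10 Kupffer cell and macrophage markers stood lower in TG (sums of 30036 and 27865 in WT, 17886 and 24399 in TG). Of these, 6 lay below both WT libraries, beside 21.6% of all genes. In het 8 of the 10 stood higher and 2 lower. The sums of the 10 overlapped there (6732 and 9146 in WT, 7846 and 10896 in het). Only 1 of the 10 lay above both WT libraries in het, beside 24.3% of all genes. None of these 20 markers was at 0. Stellate and fibroblast markers were mixed, with 5 of 9 higher in TG and 2 of 8 higher in het. Mesothelial markers stood higher for 4 of 5 in TG, where the sums overlapped (672 and 288 in WT, 364 and 664 in TG). They stood lower for 3 of 3 in het (sums of 166 and 192 in WT, 43.1 and 54.1 in het), where limma called Upk3b and Gpm6a. All 7 lymphocyte and granulocyte markers stood lower in TG (sums of 763 and 795 in WT, 716 and 597 in TG), and 2 of the 3 read in het stood higher. Both TG libraries lay below both WT libraries for 2 of the 7, beside 21.6% of all genes. Of the cholangiocyte markers 4 of 5 stood lower in TG and the 1 read in het stood higher. Markers of pancreas or other tissue stood higher for 3 of 3 in TG, and the 1 read in het stood lower. Their sums were 413 and 493 in WT and 460 and 1143 in TG. In whole liver, fewer cells of a type and less RNA per cell cannot be told apart, and the part of these cell types in the values below was not tested.

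Promoters were read for the 4 genes whose differences from WT were called by at least 1 of the tools used, with every library kept in the fit (Gldc, Bhmt, Tat and Hpd). They were chosen after their values were seen. Each line gives the 250 bases before the RefSeq transcription start in GRCm38.p6, 5′ to 3′ on the gene's strand. Capitals mark the CCAAT box, in either direction (CCAAT or ATTGG), a common promoter element.
Gldc, chr19:30175442-30175691, minus strand: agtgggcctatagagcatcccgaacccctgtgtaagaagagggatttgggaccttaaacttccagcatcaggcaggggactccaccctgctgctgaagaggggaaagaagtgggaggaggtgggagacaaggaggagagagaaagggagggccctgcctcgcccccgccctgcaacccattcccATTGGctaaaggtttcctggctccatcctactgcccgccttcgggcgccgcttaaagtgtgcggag
Bhmt, chr13:93637759-93638008, minus strand: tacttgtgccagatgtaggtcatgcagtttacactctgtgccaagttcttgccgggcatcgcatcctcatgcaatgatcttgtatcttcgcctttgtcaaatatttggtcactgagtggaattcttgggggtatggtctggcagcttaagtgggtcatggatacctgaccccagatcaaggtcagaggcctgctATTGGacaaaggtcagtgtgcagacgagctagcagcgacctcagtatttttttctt
Tat, chr8:109990186-109990435, plus strand: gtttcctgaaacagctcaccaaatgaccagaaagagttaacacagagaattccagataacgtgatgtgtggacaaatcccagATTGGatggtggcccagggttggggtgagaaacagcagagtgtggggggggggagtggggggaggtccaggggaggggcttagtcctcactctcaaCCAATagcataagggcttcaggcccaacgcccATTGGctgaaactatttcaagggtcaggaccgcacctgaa
Hpd, chr5:123182724-123182973, minus strand: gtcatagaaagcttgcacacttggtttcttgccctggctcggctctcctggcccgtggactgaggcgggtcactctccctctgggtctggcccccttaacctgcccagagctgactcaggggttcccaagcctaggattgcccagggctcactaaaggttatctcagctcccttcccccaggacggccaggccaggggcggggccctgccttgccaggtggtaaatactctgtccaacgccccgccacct
The Tat promoter held 3 CCAAT boxes, whose first bases lay 168, 72 and 40 bases before the start. Gldc held 1 at 66 bases and Bhmt 1 at 56 bases before it, and the Hpd window held none. RefSeq promoters were matched for 32 of the 43 genes. A gene was counted if any of its promoters held the motif. In windows of 250 bases before to 50 bases after the start, CCAAT was in 20 of those 32 (62.5%) and in 41.1% of 27025 genes. TATAAA was in 4 of the 32 (12.5%: Ftcd, Hal, Hgd and Tdo2) and in 15.7% of all. Both of these motifs were added after the values were seen. On either strand, none of the 32 held the cyclic AMP response element TGACGTCA (2.03% of all genes) or the C/EBP palindrome TTGCGCAA (0.207%). None held an exact consensus of HNF1 (0.0111%), HNF4 (0.0481%) or the glucocorticoid receptor (0.0111%).

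In WT liver the 43 genes spanned more than 2 orders of magnitude in normalised reads per kb of exon. Hpd, in tyrosine breakdown, was highest (WT mean 66426 per kb in the TG table), followed by the methionine cycle genes Mat1a (60294) and Gnmt (46145), by Tat (34385), and by the urea cycle genes Cps1 (28679) and Arg1 (26165). The lowest per kb were Mccc1 (273), Sdsl (278) and Etnppl (305). The length counted all annotated exons of a gene together, 10952 bases for Mccc1, 8262 for Etnppl and 1497 for Sdsl. Their order rests on that length. Before the division, the WT means in the TG table were 416 for Sdsl, 1512 for Amt, 2517 for Etnppl and 2995 for Mccc1. The first 3 places were the same in the WT pair of the het table (26676, 20563 and 19083 per kb). Tat held the fourth place in 1 table and stood at 4814 per kb in the other, below Cps1 (10432), Arg1 (9041), Fah (6622), Ahcy (5899) and Hgd (5099). The 2 tables were normalised separately, so only the order within each can be read. Together the 43 genes took 2.95% to 3.37% of all values in the libraries of the TG table and 2.96% to 3.53% in those of the het table, with mutant and WT libraries overlapping in both.

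**Figure D1:**
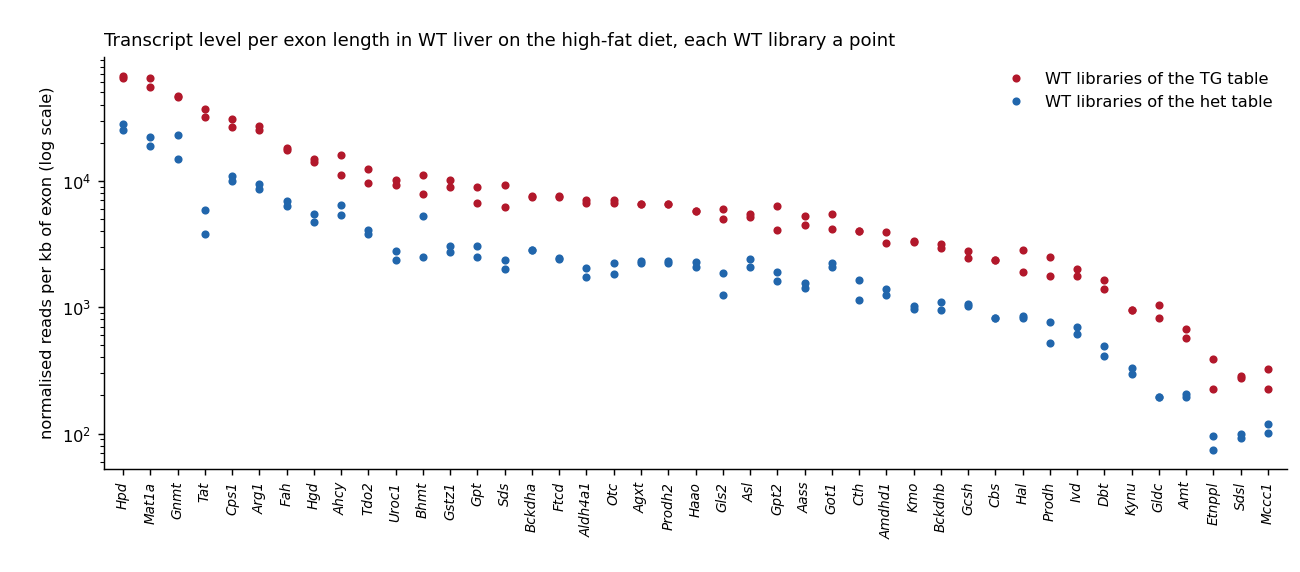
Normalised reads per kb of exon (log scale) of the 43 genes in each WT library, ordered by the WT mean of the TG table. Red points are the WT pair of the TG table and blue points that of the het table, which were normalised separately. Hpd, Mat1a and Gnmt lead both, and Tat stands lower in the order of the het table.

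No gene of the list passed the threshold of an adjusted p under 0.05 (limma, adjusted over all genes of a table) in either mutant. In TG liver 0 of 43 were called, beside 0% of the 13774 genes (0 genes). At an unadjusted p under 0.05, 1 member (2.33%, Tat) stood higher, beside 5.15% of all genes, and 2 (4.65%, Gldc and Bhmt) stood lower, beside 3.96%. In het liver 0 of 43 were called, beside 1.44% of 11773 genes (169 genes, 105 higher and 64 lower). At an unadjusted p under 0.05, 3 members stood higher (6.98%, Gldc, Aass and Got1), beside 8.58% of all genes, and 3 stood lower (6.98%, Hpd, Prodh2 and Agxt), beside 6.11%. With 43 genes, 1 gene makes up 2.33% of the list. edgeR on the recovered reads also called 0 members in each table. DESeq2 called 2 in TG (Tat higher and Bhmt lower, of 188 genes in all) and 2 in het (Gldc higher and Hpd lower, of 289).

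The count over all genes depended on the library left out. Leaving out TG 2 gave 146 called genes in TG and leaving out TG 1 gave 6. In het the count was 65 without WT 1, 173 without WT 2, 61 without het 1 and 105 without het 2, beside 169 with all. Among the 43 genes, leaving out a library led to 1 call in each table: Cth in TG without TG 2, and Gldc in het without het 2.

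Counting only whether both mutant libraries lay beyond both WT libraries, 5 of 43 stood above WT in TG (11.6%: Cps1, Asl, Tat, Got1 and Dbt), beside 21.8% of all genes. Another 9 stood below WT (20.9%: Uroc1, Gldc, Hgd, Kmo, Aldh4a1, Prodh2, Cth, Bhmt and Etnppl), beside 21.6%. In het liver 11 stood above WT (25.6%: Arg1, Sdsl, Gldc, Amt, Gcsh, Kmo, Kynu, Aass, Aldh4a1, Got1 and Mat1a), beside 24.3% of all genes, and 8 stood below (18.6%: Cps1, Asl, Hal, Hpd, Fah, Prodh2, Ahcy and Agxt), beside 23.7%. The median log2 difference of the 43 was −0.05 in TG and −0.02 in het, beside 0.00 for all genes in each table. Its sign turned when single libraries were left out, to 0.0019 in TG without WT 2 and to 0.11 in het without WT 2 or without het 2. The median size, regardless of sign, was 0.13 in TG (0.19 for all genes) and 0.18 in het (0.15 for all genes).

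**Figure D2:**
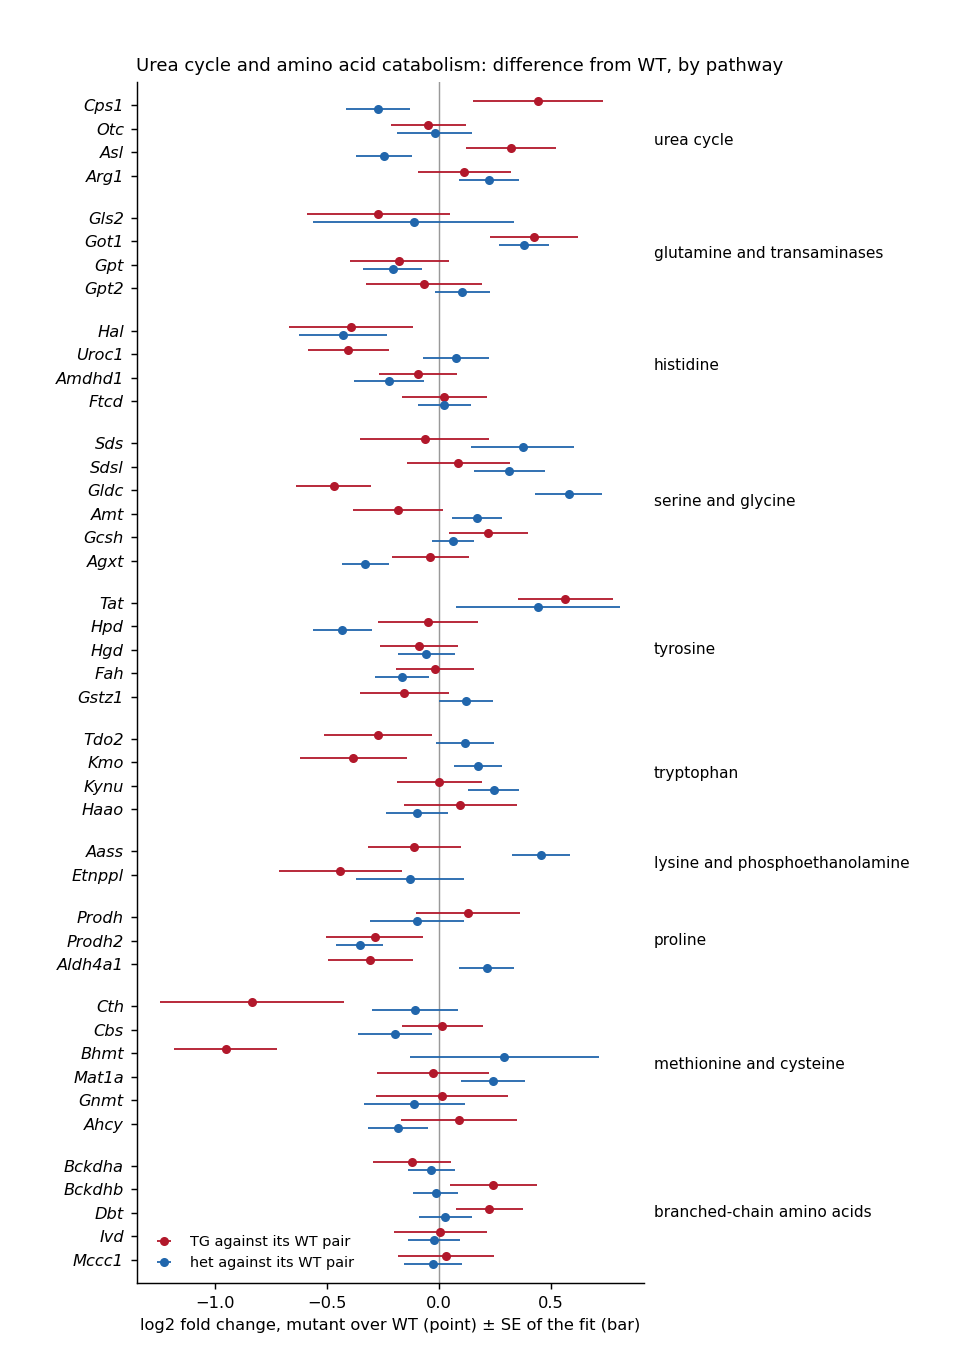
Log2 difference from WT of each gene (point) with its standard error (bar) in TG (red) and het (blue) liver, grouped by pathway. Values run from −0.95 for Bhmt to 0.56 for Tat in TG and from −0.43 for Hpd to 0.58 for Gldc in het. None passed an adjusted p of 0.05 in limma, and DESeq2 called these 4.

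**Figure D3:**
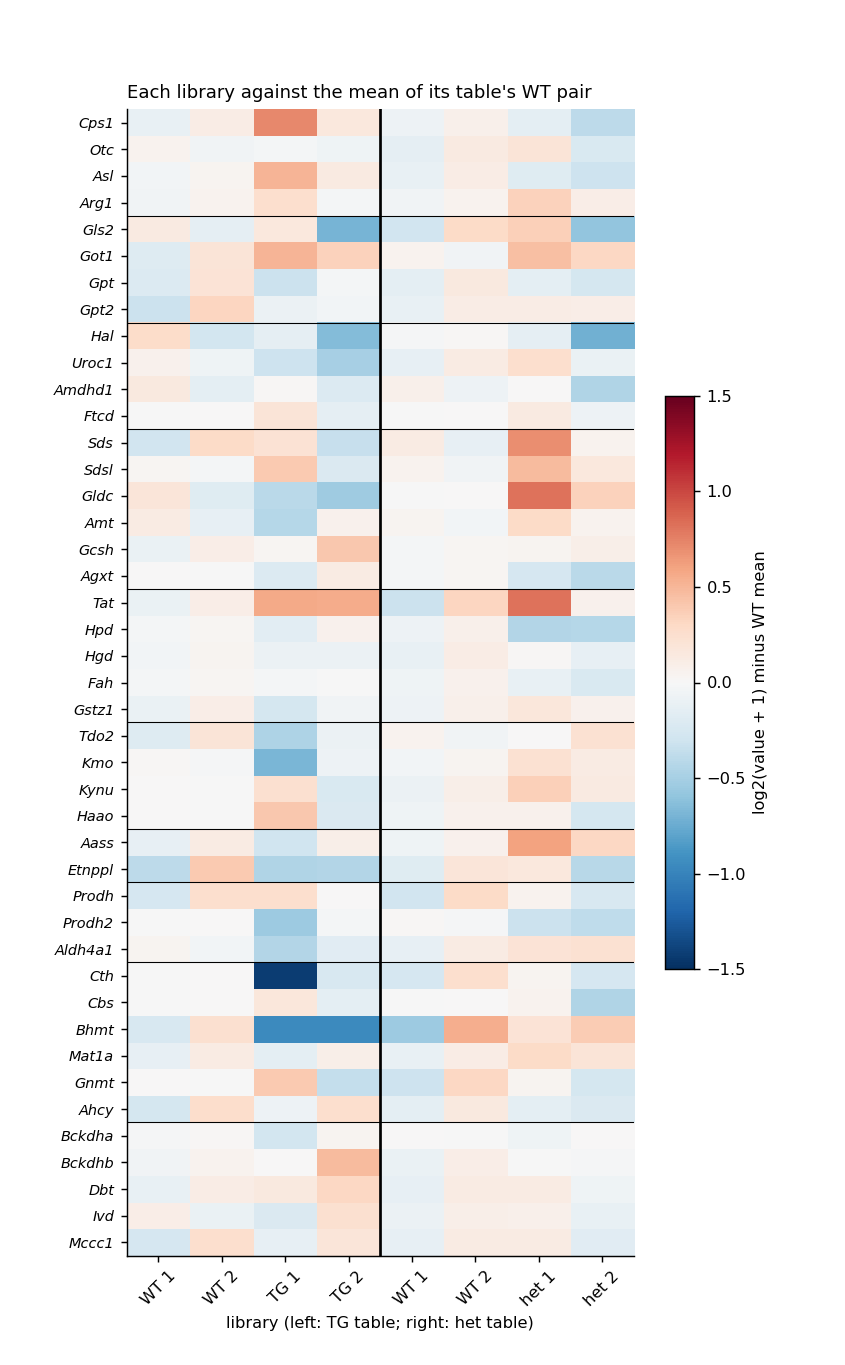
Log2(value + 1) of each gene in each library minus the mean of the WT pair of its table, on a colour scale from −1.5 (blue) to 1.5 (red). Rows are the 43 genes in pathway order and columns the 8 libraries, with the TG table on the left. Many rows differ as much between the 2 libraries of 1 group as between groups, and Cth in TG 1 is the darkest cell.

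Of the 4 urea cycle genes read, Cps1 and Asl stood on opposite sides of WT in the 2 mutants, while Arg1 and Otc each had the same sign in both. Their median log2 difference was 0.22 in TG and −0.13 in het, and that of 4 further genes of the cycle, its cofactor synthase and its carriers (Nags, Slc25a15, Slc25a13 and Slc25a12), was −0.03 in TG and 0.09 in het. Cps1 (chr1:67123026-67231259, GRCm38) encodes carbamoyl phosphate synthetase, the first and rate-controlling step. It stood at 147462 and 171166 in WT and at 262101 and 177428 in TG, so that TG 1 lay far above and TG 2 just above the higher WT library. The log2 difference was 0.44 ± 0.29 (limma, adjusted p = 0.656). Cps1 in the het table stood at 54877 and 61019 in WT and at 52087 and 44127 in het, with both het libraries below WT (−0.27 ± 0.14, adjusted p = 0.427). As a share of all values, Cps1 alone took 0.573% of the library TG 1, beside 0.323% to 0.383% in the other 3 libraries of that table and 0.291% to 0.408% in the het table. Asl encodes argininosuccinate lyase, which splits argininosuccinate into arginine and fumarate. It followed the same order: 25147 and 26426 in WT against 36603 and 28366 in TG (0.32 ± 0.20, limma, adjusted p = 0.648). The het table gave 9979 and 11621 in WT against 9491 and 8691 in het (−0.25 ± 0.12, adjusted p = 0.407). TG 1 was again the higher TG library and het 2 the lower het library for both genes. Otc, whose product joins carbamoyl phosphate to ornithine, differed by −0.05 ± 0.17 and −0.02 ± 0.17, with overlapping groups in both tables. Arg1, the arginase that releases urea, differed by 0.11 ± 0.21 in TG and by 0.22 ± 0.13 in het, where 25682 and 21522 lay above 19360 and 20928.

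Among the glutamine and transaminase genes, Got1, the cytosolic aspartate aminotransferase, stood above WT in both mutants. It stood at 10634 and 13903 in WT and at 17297 and 15412 in TG (0.43 ± 0.20, limma, adjusted p = 0.584). In the het table it stood at 5673 and 5252 in WT and at 7462 and 6767 in het (0.38 ± 0.11, adjusted p = 0.165). The groups did not overlap in either table, at 1.33-fold the WT mean in TG. Gls2, the liver glutaminase that frees ammonia from glutamine, stood at 20896 and 17451 in WT and at 21291 and 11773 in TG (−0.27 ± 0.32, limma, adjusted p = 0.796). It stood at 4369 and 6491 in WT and at 6840 and 3544 in het (−0.11 ± 0.45, adjusted p = 0.939). In both mutants the first library of Gls2 was the highest of its table and the second the lowest, 1.81-fold apart in TG and 1.93-fold in het. The alanine aminotransferase genes overlapped with WT in both tables: Gpt differed by −0.18 ± 0.22 and −0.21 ± 0.13, and Gpt2 by −0.07 ± 0.26 and 0.11 ± 0.12, in TG and het.

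Of the histidine pathway, Hal, whose product removes ammonia from histidine as the first step, stood at 15597 and 10600 in WT and at 11719 and 8191 in TG (−0.39 ± 0.27, limma, adjusted p = 0.672). It stood at 4583 and 4726 in WT and at 4256 and 2813 in het (−0.43 ± 0.20, adjusted p = 0.383). The TG and WT libraries overlapped and the het libraries lay below WT, het 2 by far the most. Uroc1, the urocanate hydratase of the next step, stood at 35050 and 32143 in WT and at 26991 and 23848 in TG (−0.40 ± 0.18, limma, adjusted p = 0.570). Uroc1 in the het table overlapped, with 8229 and 9698 in WT and 10636 and 8351 in het (0.08 ± 0.15). The later genes, Amdhd1 (imidazolonepropionase) and Ftcd (which passes the last carbon to folate), overlapped in both tables. Amdhd1 differed by −0.09 ± 0.17 in TG and −0.22 ± 0.16 in het, and Ftcd by 0.03 ± 0.19 and 0.02 ± 0.12.

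In the serine and glycine group the member of smallest p in the het table was Gldc (chr19:30098447-30175429), the decarboxylating subunit of the mitochondrial glycine cleavage system. Gldc stood at 1182 and 1185 in WT and at 2075 and 1508 in het, 1.51-fold the WT mean (0.58 ± 0.15, limma, adjusted p = 0.136). The WT libraries were nearly equal and both het libraries lay above them, het 1 more than het 2. In TG the order was turned around, with 6395 and 4991 in WT and 4256 and 3911 in TG (−0.47 ± 0.17, limma, adjusted p = 0.535). DESeq2 called Gldc higher in het (log2 difference 0.60, adjusted p = 0.0469), and limma did so without het 2 (0.81, adjusted p = 0.0360). Over the settings tried, its adjusted p in het ran from 0.0360 to 0.370. Of the other subunits of the same system, Amt, the aminomethyltransferase, differed by −0.18 ± 0.20 in TG and by 0.17 ± 0.11 in het, and Gcsh, the lipoyl carrier protein, by 0.22 ± 0.18 and 0.06 ± 0.09. Both lay above WT in het and overlapped with WT in TG.

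Sds, the serine dehydratase that turns serine into pyruvate, stood at 10543 and 15647 in WT and at 14954 and 10106 in TG (−0.06 ± 0.29, limma, adjusted p = 0.955). It stood at 3993 and 3389 in WT and at 5952 and 3821 in het (0.37 ± 0.23, adjusted p = 0.524), and the groups overlapped in both tables. The related gene Sdsl, at 148 and 138 in WT and 199 and 160 in het, had the fewest reads of the list (0.31 ± 0.16, and 0.09 ± 0.23 in TG). Agxt, the peroxisomal aminotransferase that turns glyoxylate into glycine, stood at 3807 and 3934 in WT and at 3251 and 2923 in het (−0.33 ± 0.11, limma, adjusted p = 0.202). In TG, Agxt overlapped with WT, at 11213 and 11096 in WT and 9713 and 12128 in TG (−0.04 ± 0.17). So 5 of the 6 genes of this group stood higher in het, Agxt being the exception, and 2 of 6 stood higher in TG. limma called none of the 6 with every library in the fit.

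In tyrosine breakdown, Tat (chr8:109990437-109999803), the aminotransferase of the first step and a textbook target of glucocorticoids, stood at 77010 and 88383 in WT and at 122193 and 121827 in TG. The TG libraries were nearly equal and stood at 1.48-fold the WT mean (0.56 ± 0.21, limma, adjusted p = 0.541), a difference that DESeq2 called (0.56, adjusted p = 0.0488). Over the settings tried, the adjusted p for Tat in TG ran from 0.0488 to 0.960. Tat in the het table stood at 9058 and 14097 in WT and at 19899 and 11858 in het, so that its mean was higher but the groups overlapped (0.44 ± 0.37, limma, adjusted p = 0.651). Hpd (chr5:123171807-123182727), the dioxygenase that acts on the product of Tat, stood at 53660 and 59875 in WT and at 41781 and 42290 in het. The het libraries were nearly equal and below both WT libraries (−0.43 ± 0.13, limma, adjusted p = 0.174; DESeq2, −0.43, adjusted p = 0.0345). Over the settings tried, its adjusted p in het ran from 0.0345 to 0.465. Hpd in TG overlapped with WT, at 138794 and 143916 against 126680 and 147602 (−0.05 ± 0.22). The downstream genes lay close to WT: Hgd (homogentisate dioxygenase) differed by −0.09 ± 0.17 in TG and −0.06 ± 0.13 in het. Fah, the hydrolase of the last step, differed by −0.02 ± 0.18 and −0.16 ± 0.12, and Gstz1, the maleylacetoacetate isomerase, by −0.16 ± 0.20 and 0.12 ± 0.12.

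Of the tryptophan genes, Kmo, the kynurenine monooxygenase, lay below WT in TG and above WT in het. It stood at 15894 and 15515 in WT and at 9736 and 14921 in TG, where TG 1 was well below WT and TG 2 just below (−0.38 ± 0.24, limma, adjusted p = 0.648). In the het table it stood at 4602 and 4843 in WT and at 5520 and 5150 in het (0.18 ± 0.11, adjusted p = 0.492). Tdo2, the dioxygenase that opens the tryptophan ring, overlapped in TG, at 37054 and 48267 in WT and 30696 and 39943 in TG (−0.27 ± 0.24, limma, adjusted p = 0.734). Tdo2 also overlapped in het, at 15875 and 14728 in WT and 15356 and 17892 in het (0.12 ± 0.13). Kynu, the kynureninase, differed by 0.00 ± 0.19 in TG and by 0.24 ± 0.11 in het, where both libraries lay above WT. Haao, a dioxygenase on the way to quinolinate, differed by 0.10 ± 0.25 and −0.10 ± 0.14.

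Aass, whose product carries out the first steps of lysine breakdown, stood at 5424 and 5909 in WT and at 8597 and 7031 in het (0.46 ± 0.13, limma, adjusted p = 0.147). Both het libraries lay above WT, at 1.38-fold the WT mean. In TG, Aass overlapped with WT, at 16976 and 20023 against 14938 and 19547 (−0.11 ± 0.21). Etnppl, which breaks down phosphoethanolamine, differed by −0.44 ± 0.27 in TG, with 1847 and 3187 in WT and 1779 and 1794 in TG. The gap between the WT libraries of Etnppl was thus larger than the difference from the lower of them, and in het it differed by −0.13 ± 0.24.

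For proline, Prodh2, the hydroxyproline dehydrogenase, lay below WT in both mutants. It stood at 5662 and 5511 in WT and at 4471 and 4273 in het (−0.35 ± 0.10, limma, adjusted p = 0.159). In TG it stood at 10995 and 15764, beside 16013 and 16116 in WT, so that TG 2 was only just below (−0.29 ± 0.22, adjusted p = 0.696). Aldh4a1, the mitochondrial dehydrogenase that oxidises products of both proline and hydroxyproline breakdown, lay on opposite sides of WT. It stood at 34629 and 32792 in WT and at 24773 and 29966 in TG (−0.31 ± 0.19, limma, adjusted p = 0.640). In the het table it stood at 8441 and 9939 in WT and at 10538 and 10718 in het (0.21 ± 0.12, adjusted p = 0.468). Prodh, the proline dehydrogenase, overlapped in both, at 13736 and 19528 in WT and 19528 and 16463 in TG (0.13 ± 0.23). Prodh stood at 4037 and 5979 in WT and at 5076 and 4150 in het (−0.10 ± 0.21).

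Among the 43 genes, the 2 lowest log2 differences in TG were those of Bhmt and Cth, of the methionine and cysteine group. Bhmt (chr13:93616675-93637961), which remethylates homocysteine to methionine with betaine, stood at 45679 and 64191 in WT and at 27964 and 28005 in TG. The TG libraries were nearly equal and both lay below WT, whose mean was 1.96-fold the TG mean (−0.95 ± 0.23, limma, adjusted p = 0.492). DESeq2 called the difference (−0.97, adjusted p = 0.00264), and over the settings tried the adjusted p ran from 0.00264 to 0.960. In the het table the WT libraries of Bhmt stood far apart, at 14320 and 30323, and the het libraries lay between them at 24025 and 27106 (0.29 ± 0.42, limma, adjusted p = 0.802). Without WT 1 the het difference was −0.25 and without WT 2 it was 0.83, so its direction rested on single WT libraries. Cth, the cystathionine gamma-lyase that makes cysteine, stood at 11100 and 11234 in WT and at 4150 and 9442 in TG (−0.84 ± 0.41, limma, adjusted p = 0.598). The 2 TG libraries of Cth were 2.28-fold apart, the widest gap of any member within the TG pair. Without TG 2 the difference of Cth was −1.43 (adjusted p = 0.0332) and without TG 1 it was −0.24. Cth in the het table overlapped, at 3189 and 4548 in WT and 3927 and 3185 in het (−0.11 ± 0.19).

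The other genes of the methionine cycle stayed within 0.25 log2 units of WT in both tables. Mat1a, which makes S-adenosylmethionine, differed by −0.03 ± 0.25 in TG and by 0.24 ± 0.14 in het, where 86833 and 81586 lay above 65628 and 77000. Gnmt, the glycine methyltransferase that uses it, differed by 0.01 ± 0.30 and −0.11 ± 0.23. Ahcy, which splits the S-adenosylhomocysteine that results, differed by 0.09 ± 0.26 in TG and by −0.18 ± 0.13 in het, with both het libraries below WT. Cbs, which joins homocysteine to serine, differed by 0.02 ± 0.18 and −0.20 ± 0.16.

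The 5 branched-chain genes of the list all differed from WT by less than 0.05 log2 units in het. In TG their median size of difference was 0.12, beside 0.06 for the methionine and cysteine group and 0.09 for the tyrosine group. Bckdha, a subunit of the branched-chain keto acid dehydrogenase that commits these amino acids to breakdown, stood at 14086 and 14520 in WT and at 11820 and 14658 in TG (−0.12 ± 0.18, limma, adjusted p = 0.833). It stood at 5411 and 5360 in WT and at 5134 and 5395 in het (−0.03 ± 0.10, adjusted p = 0.918). Bckdhb, its partner subunit, differed by 0.24 ± 0.19 in TG and −0.01 ± 0.10 in het. Dbt, the transacylase of the complex, stood above WT in TG with 5634 and 6285 beside 4698 and 5510 (0.23 ± 0.15), and differed by 0.03 ± 0.12 in het. In leucine breakdown, Ivd (isovaleryl-CoA dehydrogenase) differed by 0.01 ± 0.21 and −0.02 ± 0.12, and Mccc1 (a carboxylase subunit) by 0.03 ± 0.22 and −0.03 ± 0.13.

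**Figure D4:**
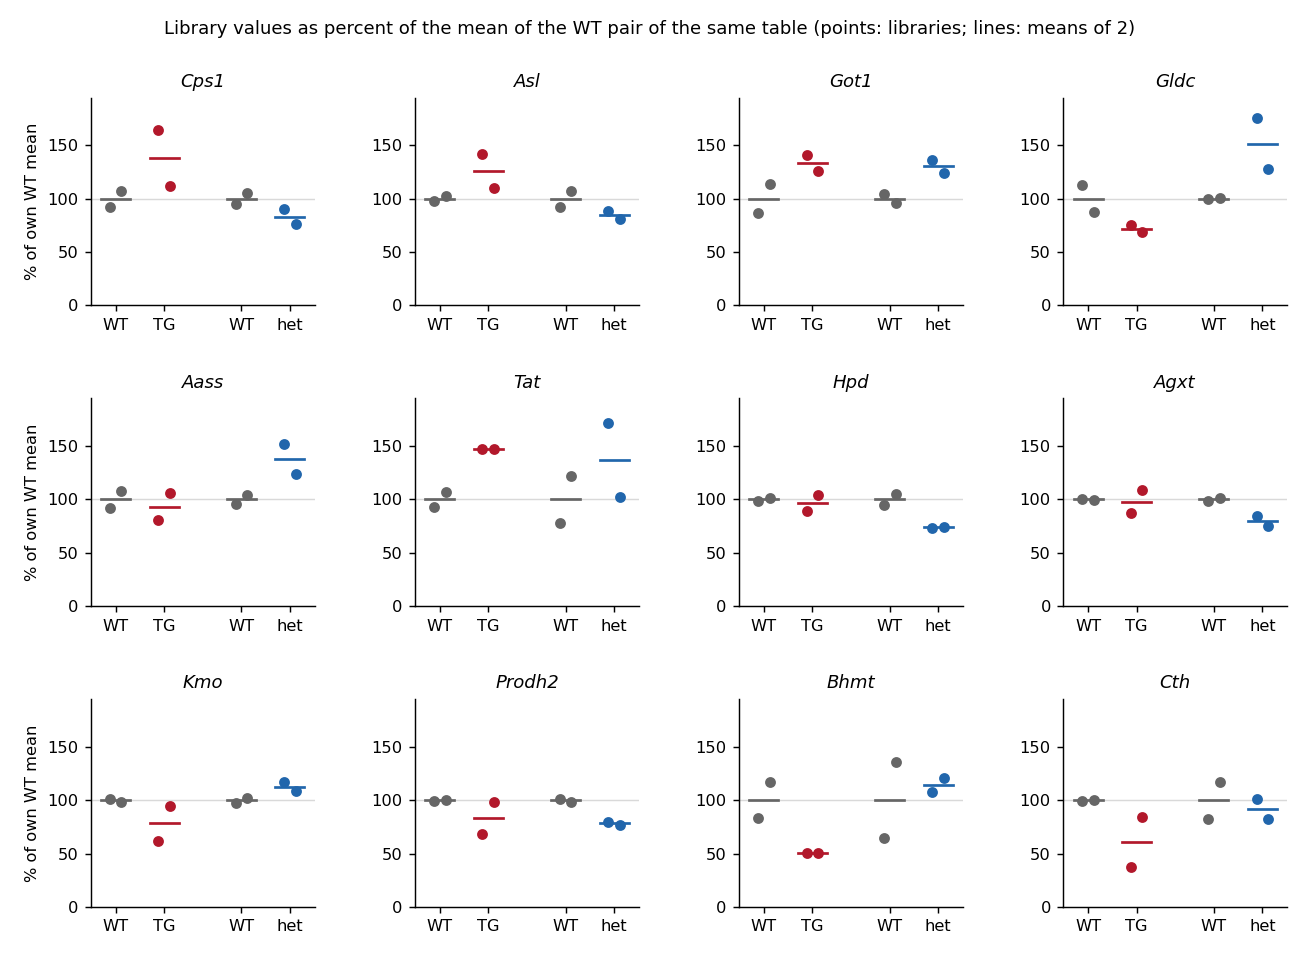
Library values of 12 genes as a percent of the mean of the WT pair of the same table (points are libraries, lines are means of 2; grey WT, red TG, blue het). Gldc lies below 100% in TG and above it in het, Got1 lies above and Prodh2 below in both, and the TG libraries of Cth and the WT libraries of Bhmt in the het table lie far apart.

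The effects in TG and het were then compared directly, as the difference between the 2 contrasts in 1 limma fit of 8 libraries, since the 2 tables share no WT library. None of the 43 was called, beside 0.434% of 11754 genes (51 genes). At an unadjusted p under 0.05, 1 member (2.33%, Asl) had the higher value in TG, beside 8.42% of all genes, and 3 (6.98%, Gldc, Aldh4a1 and Bhmt) had the lower, beside 8.28%. Gldc differed most by p, with a TG effect 1.05 ± 0.25 log2 units below the het effect (log2 difference −1.05, limma, adjusted p = 0.125). edgeR called no member, and DESeq2 called Gldc (−1.08, adjusted p = 0.00956). Over the settings tried, the adjusted p for Gldc ran from 0.00956 to 0.350. Bhmt followed (−1.24 ± 0.48, adjusted p = 0.262), then Asl (0.57 ± 0.23, adjusted p = 0.281), Aldh4a1 (−0.52 ± 0.22, adjusted p = 0.282), Aass (−0.57 ± 0.25, adjusted p = 0.313) and Cps1 (0.71 ± 0.32, adjusted p = 0.316). The number of genes called overall was 643 without TG 2, 137 without TG 1, 22 without WT 1 and 25 without WT 2 of the TG table. It was 5 without WT 1, 17 without WT 2, 6 without het 1 and 7 without het 2 of the het table. Without TG 2, 2 members were called, Kmo (−0.87, adjusted p = 0.0225) and Cth (−1.32, adjusted p = 0.0431).

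Counting libraries alone, 5 of 43 lay beyond WT in both tables on opposite sides (11.6%), beside 15.1% of all genes: Cps1 and Asl above in TG and below in het, and Gldc, Kmo and Aldh4a1 the other way. Prodh2 (below) and Got1 (above) lay on the same side in both (4.65%), beside 7.22% of all genes.

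The spread between the 2 libraries of a group was as large as most of these differences. In TG the larger gap within a group exceeded the difference between groups for 36 of 43 genes (83.7%, beside 70.3% of all genes), and in het for 29 of 43 (67.4%, beside 65.4%). The median log2 gap was 0.20 between the WT libraries and 0.31 between the TG libraries, beside 0.18 and 0.22 for all genes. In the het table it was 0.17 between the WT libraries and 0.22 between the het libraries, beside 0.15 and 0.14 for all genes. Gaps above 0.5 between the TG libraries were found for 10 of the 43 (23.3%), beside 21.6% of all genes. The 95% interval of the log2 difference reached a median of 0.53 to either side in TG, 0.30 in het and 0.58 for the TG effect minus the het effect. A change of 1 log2 unit in either direction lay outside the interval for 36 of 43 genes in TG and for 40 in het. The TG exceptions were Cps1, Gls2, Hal, Tat, Cth, Bhmt and Etnppl, and those in het were Gls2, Tat and Bhmt. Depth was not short for most of the list: the fewest reads behind a value were 358 in the TG table and 135 in the het table, both for Sdsl, and at least 1149 and 440 for every other member.

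**Figure D5:**
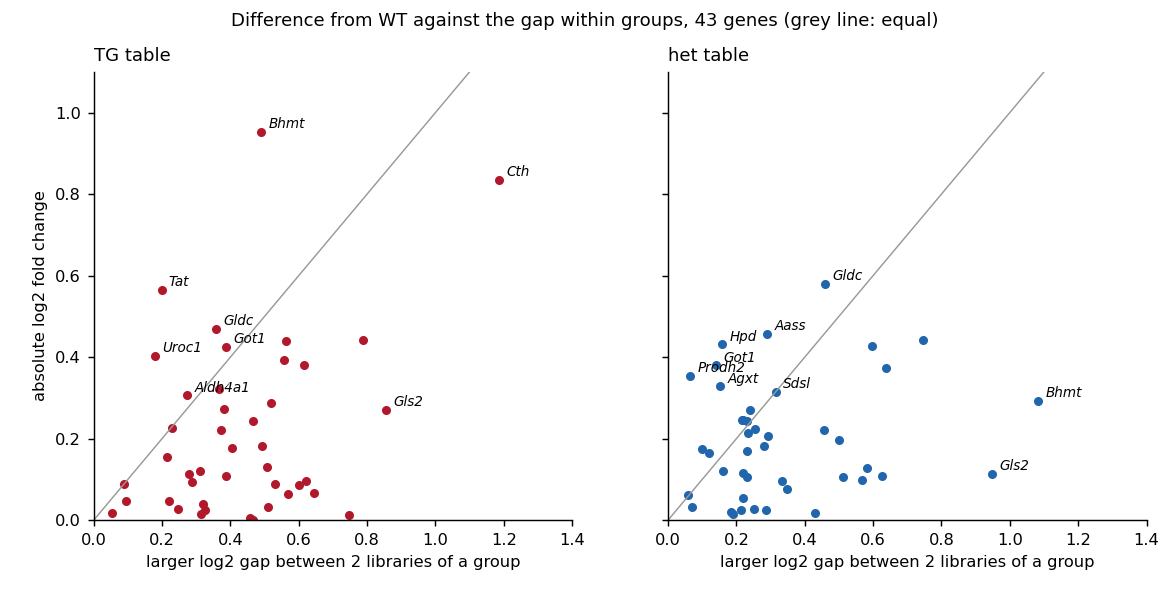
Absolute log2 difference from WT (vertical axis) against the larger log2 gap between the 2 libraries of a group (horizontal axis) for the 43 genes, TG table left and het table right. Points below the grey line, 36 in TG and 29 in het, have a gap within a group that exceeds the difference between groups. Bhmt and Tat lie above the line in TG, and Gldc, Aass and Hpd in het.

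Beyond the list, 106 further genes of the same pathways, of amino acid transport and of its regulation were examined. In TG none of the 101 read was called (limma), and their median log2 difference was −0.01. In het 1 of 99 was called (1.01%), beside 1.44% of all genes: Slc16a10, a transporter of aromatic amino acids. It stood at 2279 and 2164 in WT and at 1232 and 1325 in het, both het libraries far below WT (−0.80 ± 0.10, limma, adjusted p = 0.00960). In TG it stood at 4914 and 6191 in WT and at 6158 and 8250 in TG, where the groups overlapped (0.37 ± 0.21, adjusted p = 0.618). Among the regulators the smallest p in TG was that of Ppargc1a, a coactivator of gluconeogenic and mitochondrial genes, which stood at 525 and 529 in WT and at 905 and 947 in TG (0.81 ± 0.12, limma, adjusted p = 0.267). In het it stood at 140 and 161 in WT and at 147 and 156 in het (0.01 ± 0.15). Of 17 further branched-chain genes, 14 stood lower in TG (median −0.20) and 13 stood higher in het (median 0.16), with no call in either. Of all genes, 6855 of 13774 stood lower in TG and 5873 of 11773 higher in het. The summed values of the 17 were 152562 and 152256 in WT and 112409 and 157282 in TG, where the groups overlapped. In the het table they were 47771 and 47203 in WT and 53560 and 53394 in het. Other lists leaned as well, with 7 of 8 glutamine and glutamate genes and 10 of 13 methionine and cysteine genes higher in het. Of 12 regulators, 10 stood higher in TG.

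Genes known to mark the zones of the liver lobule were read as 2 lists, whose difference between the tables was not tested. Of 16 pericentral genes, 13 stood lower in het (median −0.33, 1 called) and 11 higher in TG (median 0.21). Their summed values were 254980 and 250965 in WT and 189047 and 226731 in het, and in TG the groups overlapped (506693 and 686663 in WT, 433635 and 787138 in TG). The called gene was Rnf43, a Wnt feedback gene, at 608 and 604 in WT and at 356 and 408 in het (−0.67 ± 0.11, limma, adjusted p = 0.0279). Of the periportal genes, 6 of 9 stood higher in het (median 0.22) and 5 of 10 in TG (median 0.01). The part of these values in those of the amino acid genes was not tested.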

How the data were processed

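Per the labels' protocols, liver RNA was extracted with Trizol and sequenced from Illumina TruSeq libraries. Subread 1.5.2, featureCounts, DESeq2 and mm10/GRCm38 appear, without roles, in the submitters' processing notes. For the counting, strand setting and annotation were not given in the sources used here. In all, the authors deposited 1 table per mutant, whose unit is a normalised signal: reads per gene divided by 1 factor per library. All genes came out as whole reads (within 0.001 read) when divided by that step, and the recovered totals give the depth. The lowest mean of a listed gene was 11.2 (TG table) and 17.8 (het table), so genes below were not analysed. A few gene names, 20 and 18, had turned into dates, and none was a member.

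Values were tested as log2(value + 1) in limma 3.58.1 (R 4.3.3, trend and robust), each mutant against its own WT pair, with Benjamini-Hochberg adjustment over all genes of the table and a threshold of 0.05. All errors after ± are standard errors of this fit. edgeR 4.0.16 and DESeq2 1.42.0 were run on the recovered reads as alternatives. The script was also run on simulated data with the same dispersion for every gene and group. That run does not measure how it performs on the spread of these libraries. Replicates differed beyond counting error in every group (chi-square per degree of freedom 18.9 to 383). Gene coordinates and exon lengths are from GENCODE for GRCm38, and promoters from RefSeq. Exons of Aldh4a1, Bckdha, Bhmt, Gls2, Gstz1, Mccc1 and Sds overlap those of another gene, so their counts are uncertain.

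The genes, their pathways and the other lists were chosen with earlier results of these data known. Values in every library are given for genes beyond WT in both tables, the 6 of smallest p in each table and the committed enzymes Cps1, Gls2, Hal, Sds, Gldc, Tat, Tdo2, Aass, Prodh, Cth and Bckdha. Of the other lists, called genes and otherwise the 2 of smallest p in each table could be named.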

Additional observations from a re-analysis of the deposited data

How the results depend on the processing

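With 2 libraries per group, the counts depend on the tool and on single libraries. In TG, DESeq2 called 188 genes (97 higher, 91 lower) and 2 members, and all 8 libraries in 1 fit gave 25 genes. Leaving out 1 library gave 0 to 146 genes, 0 to 1 members, a member median of −0.11 to 0.0019 (log2), and 5 to 13 members above and 13 to 20 below WT. These are 11.6% to 30.2% and 30.2% to 46.5% of members, beside 33.6% to 38.2% and 34.4% to 39.2% of all genes. Fewer libraries leave less room to overlap, for members and for all genes. In het, edgeR called 87 genes (54 higher, 33 lower), DESeq2 289 (189 higher, 100 lower) and 2 members, the fit that was not robust 93, and all 8 libraries in 1 fit 0. Leaving out 1 library gave 61 to 173 genes, 0 to 1 members, a member median of −0.11 without WT 1 to 0.11 without WT 2, which turns its sign, and 12 to 20 members above and 9 to 20 below WT. These are 27.9% to 46.5% and 20.9% to 46.5% of members, beside 36.8% to 37.5% and 35.8% to 38.3% of all genes. For the difference of the effects DESeq2 called 371 genes (155 higher, 216 lower) and 1 member, edgeR 40 genes, and leaving out 1 library gave 5 to 643 genes and 0 to 2 members. Pseudocounts of 0.5 and 5, a mean CPM of at least 5, TMM scaling, scaling without the top 20 genes and edgeR called 0 members in each comparison. Scaling without the top 20 genes put 4 members above and 13 below WT in TG, beside 5 and 9 in the main setting. In het it put 9 above and 10 below, beside 11 and 8. The share of all genes at that scaling is not given here. Replicate numbers did not pair the libraries (correlation of their differences 0.107 in TG and −0.04 in het). With a replicate block 0 genes were called in TG, 138 in het and 46 for the difference, and 0 members. Of 1935 values of single members under other settings, 9 passed the threshold, all in the direction reported, and none was reversed past it. Of the same values, 1 more shifted enough to be labelled moved, and the other 1925 were labelled the same. That label also took in values whose sign changed. Without TG 1 the sign changed for 13 of 43 members in TG, and without het 2 for 12 of 43 in het. The sign was the same in every setting for 19 of 43 members in TG and 24 in het. The cause of these shifts was not tested.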
